A study of Homo sapiens with 8 samples.

Results

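The genes described here are the nuclear transport receptors and the pore components named NUP, taken from the gene table by symbol: every symbol beginning with KPNA, KPNB or TNPO, or with IPO, XPO or NUP and a digit. The rule took 46 of 18388 genes. They are 23 transport receptors, 20 nucleoporins and 3 further NUP-named genes, namely NUP210L, NUP62CL and the antisense transcript NUP50-AS1. With a minimum of 100 reads in at least 3 of 6 libraries, 42 members could be compared, 22 receptors and all 20 nucleoporins. KPNA7 and the 3 further genes were left out, with at most 5.78 normalized reads for KPNA7, 9.25 for NUP210L, 33.5 for NUP62CL and 95.5 for NUP50-AS1 in any library. The symbol rule does not reach NUP42, which the table lists under its older symbol NUPL2, nor receptors with other names such as CSE1L.

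U-2OS Tet-ON cells, a human osteosarcoma line, were transfected with a control siRNA (siControl) or with siRNA against CGGBP1 (siCGGBP1), both at 50 nM for 72 h, and then received 75 µM 4-thiouridine (4sU) for 60 min. The titles of all these samples also carry the word DMSO, which both groups share. Both groups carry the Tet-ON background, and there were 3 libraries per group. A siControl library at 0 µM and another at 200 µM 4sU entered no comparison and are described beside the others for conversions and, where named, for the new-to-total ratio. CGGBP1 binds CGG repeats, and its depletion was made by siRNA in 1 cell line without a rescue among the samples used here, so that effects of the siRNA on other transcripts cannot be told apart from those of CGGBP1.

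In SLAM-Seq, 4sU built into RNA during the pulse is alkylated and then read as C in place of T, so that T-to-C conversions mark newly synthesized RNA. Reads came from the 3′ ends of transcripts and were not scaled by length, so values are compared between groups and not between genes unless stated. CGGBP1 itself had 1245, 1089 and 891 normalized reads in siControl and 212, 117 and 362 in siCGGBP1, a log2 fold change of -2.22 (SE 0.39, adjusted p = 0.0138, edgeR). This call was lost without siControl replicate 1 (adjusted p = 0.0632) or siCGGBP1 replicate 1 (adjusted p = 0.0851). The 6 libraries held between 10127519 and 14221516 reads. The mesenchymal markers VIM, COL1A1 and SPARC were present with at least 6351 reads in every library, RUNX2 with at least 102, whereas ALPL had at most 21. CDH1 and CD3E were at 0, KRT19 had at most 4 and PTPRC at most 8 reads, and EPCAM had between 46.0 and 184.5.

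Proteins and RNAs too large to diffuse enter and leave the nucleus through nuclear pores. Import receptors of the importin beta family bind cargo in the cytoplasm, pass through the channel and release it where Ran is loaded with GTP. KPNB1, importin beta 1, is the receptor that takes cargo mostly through an adaptor of the importin alpha family (the KPNA genes), which recognizes the classical nuclear localization signal. Exportins bind their cargo together with Ran-GTP and release it in the cytoplasm, where the GTP is hydrolysed. The nucleoporins build the pore itself, as a Y complex on both faces, an inner ring, a channel of proteins rich in phenylalanine and glycine, filaments on the cytoplasmic side and a basket on the nuclear side. KPNB1 and Ran also act outside transport, in the assembly of the mitotic spindle and of new pores.

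In total RNA, KPNB1 was the single member called by edgeR, and it was lower in siCGGBP1. It had 15972, 14962 and 14623 normalized reads in siControl and 6228, 4978 and 7460 in siCGGBP1. Every siControl library was far above every siCGGBP1 library, so the groups did not overlap. KPNB1 (ENSG00000108424, chr17:47649476-47685505 on the plus strand, GRCh38) fell 2.44-fold, from 15185 ± 702 to 6222 ± 1241 (SD, n = 3), a log2 fold change of -1.29 (SE 0.17, adjusted p = 0.00353, edgeR quasi-likelihood test). The call was kept under each of the 12 alternatives, including each library left out in turn, with log2 fold changes between -1.43 and -1.16 and adjusted p of at most 0.0323. Since these are bulk libraries, fewer cells with KPNB1 RNA and less KPNB1 RNA per cell cannot be told apart.

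Thus 1 of 42 members was called lower and 0 higher, by edgeR at an adjusted p under 0.05. Over all 10138 tested genes, 1.21% were called lower and 0.572% higher. At an unadjusted p under 0.05, 8 members had a log2 fold change below 0 and 1 above, against 8.32% and 8.10% of all tested genes. With DESeq2, or with edgeR on all genes with a read, 2 members were called lower and 1 higher, KPNA3 joining KPNB1 and KPNA4 being the higher one. These settings also called more genes as a whole. DESeq2 called 355 of 10138 genes lower and 264 higher. With edgeR on all genes with a read, 303 of 17385 were called lower and 174 higher.

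**Figure D1:**
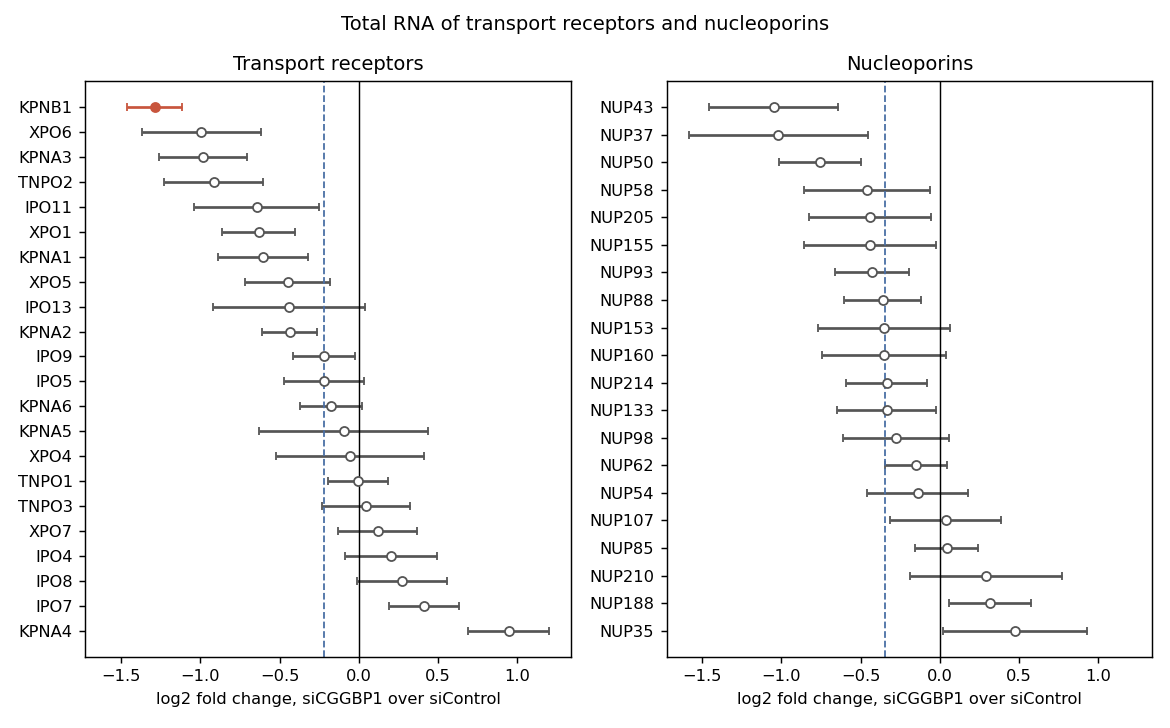
Log2 fold change in total RNA (siCGGBP1 over siControl, x axis) of the 22 tested receptors (left) and 20 nucleoporins (right), with standard errors from edgeR. The filled red point is KPNB1, the one member with an adjusted p under 0.05, and the dashed lines are the medians, -0.22 for receptors and -0.34 for nucleoporins.

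KPNB1 stood apart from the other receptors by its number of reads as well. With 15185 normalized reads in siControl it ranked 88 of the tested genes, and the next highest member was KPNA2 with 5389. Of the 136 tested genes with at least 10000 normalized reads in siControl, 16 were called lower and 5 higher, and 3 had a log2 fold change below that of KPNB1. Over all tested genes KPNB1 ranked 17 by p and 266 by log2 fold change from the lowest.

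The share of receptor reads that belonged to KPNB1 was 34.5, 33.1 and 31.6% in the siControl libraries and 18.6, 15.4 and 19.7% in the siCGGBP1 libraries. This is 33.0 ± 1.47% against 17.9 ± 2.25% (SD, n = 3). Per read of the 6 tested importin alpha genes together, KPNB1 had 1.40 ± 0.039 reads in siControl and 0.679 ± 0.155 in siCGGBP1. The summed reads of the other receptors were 30770 ± 823 in siControl and 28402 ± 1786 in siCGGBP1, and those of the nucleoporins 18047 ± 2020 and 15009 ± 1942. Both of these sums overlapped between groups, whereas the KPNB1 share did not. The other receptors had 1.72 ± 0.138 reads per nucleoporin read in siControl and 1.90 ± 0.135 in siCGGBP1, which also overlapped.

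**Figure D2:**
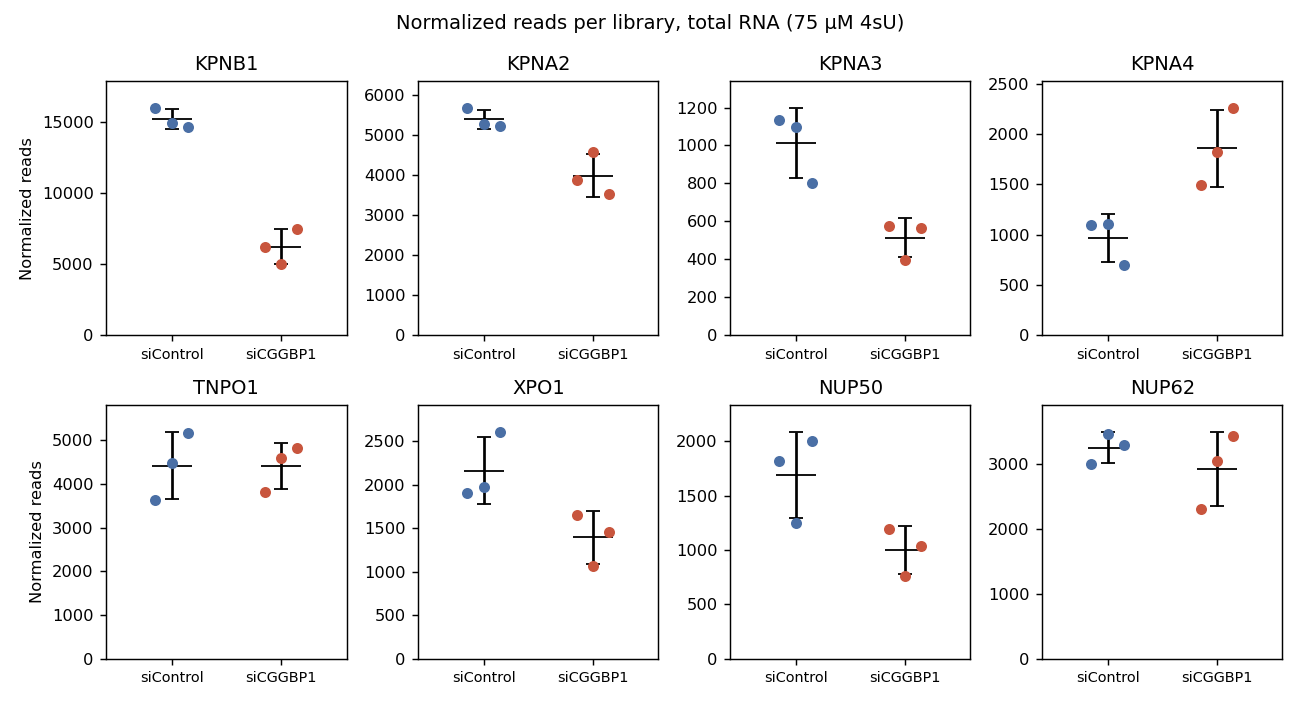
Normalized reads per library (y axis, from 0) of 8 members in siControl (blue) and siCGGBP1 (red) at 75 µM 4sU, with the mean and SD of 3 libraries. KPNB1, KPNA2, KPNA3, XPO1 and NUP50 lie lower in siCGGBP1 without overlap, KPNA4 lies higher without overlap, and TNPO1 and NUP62 overlap.

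The importin alpha adaptors, the partners of KPNB1 in classical import, did not share one direction. KPNA4 had 1098, 1103 and 694 normalized reads in siControl and 1490, 1824 and 2255 in siCGGBP1. Every siCGGBP1 library was above every siControl library, which held for no other member, while 12.1% of all tested genes were higher without overlap. The log2 fold change of KPNA4 was 0.94 (SE 0.26, adjusted p = 0.0863, edgeR), and DESeq2 called it (adjusted p = 0.0142). Its adjusted p ranged from 0.0142 to 0.207 over the alternatives.

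KPNA3, of the same importin alpha subfamily as KPNA4, had values in the other direction. It had 1137, 1099 and 802 normalized reads in siControl and 577, 394 and 566 in siCGGBP1, without overlap. Its log2 fold change was -0.98 (SE 0.28, adjusted p = 0.0975, edgeR), with adjusted p from 0.0242 under DESeq2 to 0.288 over the alternatives. The difference between KPNA4 and KPNA3 was not tested.

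KPNA2, an adaptor that is abundant in proliferating cells, had 5669, 5268 and 5230 normalized reads in siControl and 3873, 4566 and 3522 in siCGGBP1. These values did not overlap either, but the log2 fold change of -0.43 (SE 0.17) did not pass the test (adjusted p = 0.234, edgeR). KPNA1 had a log2 fold change of -0.60 (SE 0.28), KPNA6 of -0.17 (SE 0.20) and KPNA5 of -0.10 (SE 0.53). Of these KPNA5 had the fewest reads, 127 to 365 per library, and its sign changed with the library left out.

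Among the 11 import receptors of the importin beta family, 7 had a log2 fold change below 0 and 4 above, with a median of -0.22. Apart from KPNB1, the lowest p among these 11 belonged to TNPO2, a paralog of TNPO1. TNPO2 had 578, 615 and 668 normalized reads in siControl and 326, 401 and 261 in siCGGBP1, a log2 fold change of -0.92 (SE 0.31, adjusted p = 0.159, edgeR). TNPO1, which imports RNA-binding proteins such as hnRNPs, had 3622, 4472 and 5161 in siControl and 3808, 4593 and 4811 in siCGGBP1. Here the groups lay on top of each other, and the log2 fold change was -0.0047 (SE 0.19).

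IPO7, a receptor for ribosomal proteins and histone H1 among others, had 3771, 2610 and 3607 normalized reads in siControl and 4322, 3424 and 5525 in siCGGBP1. The groups overlapped and the log2 fold change was 0.41 (SE 0.22, adjusted p = 0.385, edgeR). Its paralog IPO8 had 0.27 (SE 0.29), and without siCGGBP1 replicate 3 this became -0.04. IPO9, an importer of histones H2A and H2B, had 1946, 1951 and 2049 in siControl and 1730, 1544 and 1830 in siCGGBP1, without overlap, with a log2 fold change of -0.22 (SE 0.19, adjusted p = 0.628). The remaining receptors of this group ranged from -0.64 for IPO11 to 0.20 for IPO4, an importer of histones H3 and H4.

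Of the 5 exportins, 4 had a log2 fold change below 0, and none passed the test. XPO1, the exportin for leucine-rich nuclear export signals, had 1903, 1978 and 2610 normalized reads in siControl and 1659, 1067 and 1461 in siCGGBP1, a log2 fold change of -0.63 (SE 0.23, adjusted p = 0.193, edgeR). XPO6, which exports actin, had 714, 376 and 591 in siControl and 187, 336 and 321 in siCGGBP1, a log2 fold change of -0.99 (SE 0.37, adjusted p = 0.203). XPO5, the exportin of miRNA precursors, had 805, 660 and 747 in siControl and 573, 471 and 576 in siCGGBP1, a log2 fold change of -0.45 (SE 0.27, adjusted p = 0.440). All of these lay lower in siCGGBP1 without overlap, although for XPO6 the nearest libraries were close, 376 against 336. XPO4 and XPO7 had log2 fold changes of -0.06 (SE 0.47) and 0.12 (SE 0.25).

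In all, 8 of 22 receptors lay lower in siCGGBP1 without overlap between the libraries, and 3 of 20 nucleoporins, whereas 12.1% of all tested genes did so. The receptors were IPO9, KPNA2, KPNA3, KPNB1, TNPO2, XPO1, XPO5 and XPO6, and the nucleoporins NUP43, NUP50 and NUP88. Of the 42 members, 73.8% had a log2 fold change below 0, against 49.9% of all tested genes. The medians were -0.22 for receptors, -0.34 for nucleoporins and 0.00 for all tested genes. Without siControl replicate 3 the nucleoporin median was -0.12, and without siControl replicate 2 the receptor median was -0.35. Members of a family are not replicates of a condition, so these medians carry no test.

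No nucleoporin was called in either direction. The lowest p belonged to NUP50, a basket protein that binds importin alpha and helps to release its cargo. NUP50 had 1820, 1248 and 2003 normalized reads in siControl and 1196, 762 and 1041 in siCGGBP1, a log2 fold change of -0.76 (SE 0.26, adjusted p = 0.162, edgeR). The groups did not overlap, although siControl replicate 2 lay just above siCGGBP1 replicate 1. NUP153, the other basket protein in the set, had -0.35 (SE 0.42).

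Of the 6 NUP-named subunits of the Y complex, the scaffold that coats both faces of the pore, 4 had a log2 fold change below 0. Their median was -0.34. NUP43 had 658, 609 and 486 normalized reads in siControl and 469, 176 and 202 in siCGGBP1, a log2 fold change of -1.05 (SE 0.41, adjusted p = 0.216, edgeR). NUP37 had 576, 360 and 786 in siControl and 507, 275 and 68.2 in siCGGBP1, which overlapped, and a log2 fold change of -1.02 (SE 0.56). NUP107 and NUP85 were at 0.04 each (SE 0.35 and 0.20). The subunits SEC13, SEH1L and AHCTF1, outside the symbol rule, had -0.03 (SE 0.35), 0.04 (SE 0.28) and 0.02 (SE 0.34). Subunits of this complex thus had log2 fold changes from -1.05 to 0.04, none of which passed the test.

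The inner ring, which lines the pore between its faces, had 3 members near -0.43, namely NUP93, NUP155 and NUP205, and 2 above 0. NUP93 had 1280, 1677 and 1518 normalized reads in siControl and 925, 1081 and 1319 in siCGGBP1, a log2 fold change of -0.43 (SE 0.23, adjusted p = 0.391, edgeR). NUP188 had 660, 1060 and 791 in siControl and 1059, 1136 and 930 in siCGGBP1, with 0.32 (SE 0.26), and NUP35, at 137 to 294 reads, had 0.47 (SE 0.46).

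The channel nucleoporins NUP62, NUP54 and NUP58, whose repeats form the permeability barrier, all had values below 0, with a median of -0.15. NUP62 had the most reads of any nucleoporin, 2998, 3470 and 3293 in siControl and 2312, 3045 and 3434 in siCGGBP1. The groups overlapped, with a log2 fold change of -0.15 (SE 0.20, adjusted p = 0.773, edgeR). On the cytoplasmic side, NUP88 and NUP214, which form one subcomplex, had -0.36 (SE 0.24) and -0.34 (SE 0.26). NUP98 had -0.28 (SE 0.34) and the transmembrane NUP210 had 0.29 (SE 0.48). The transmembrane NDC1, POM121 and POM121C, outside the symbol rule, had -0.57 (SE 0.28), -0.63 (SE 0.31) and -0.18 (SE 0.29). NUPL2, the older symbol of NUP42, had -0.44 (SE 0.54).

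**Figure D3:**
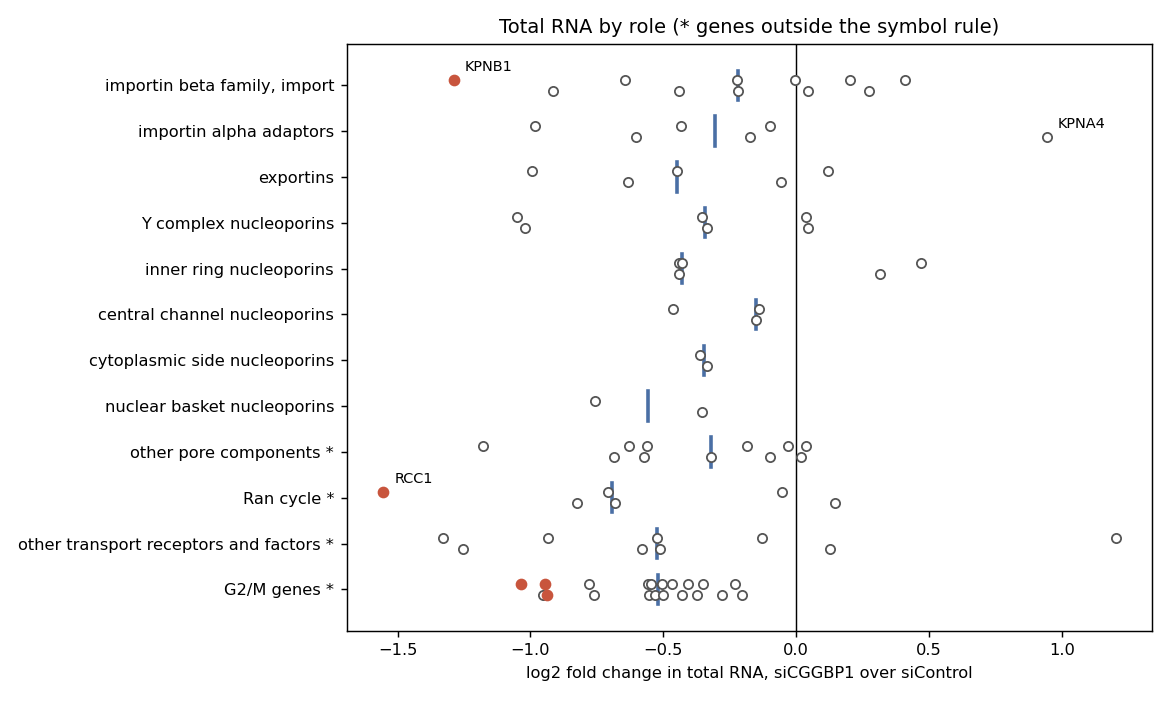
Log2 fold change in total RNA (x axis) of each tested gene by role, with blue bars for list medians and filled red points for genes with an adjusted p under 0.05. Lists marked with a star lie outside the symbol rule. KPNB1 is the one red point among the members, and all 20 G2/M genes lie below 0.

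Transport genes outside the symbol rule were read from 3 lists, with 26 genes in all. Of these, 21 had a log2 fold change below 0, against 49.9% of all tested genes. One gene was called lower and none higher, against 1.21% and 0.572%. This was RCC1, the exchange factor that loads Ran with GTP on chromatin, at 1122 ± 474 normalized reads in siControl and 383 ± 116 in siCGGBP1, a log2 fold change of -1.55 (SE 0.36, adjusted p = 0.0478, edgeR). The RCC1 call was lost with any single library left out (adjusted p from 0.0552 to 0.178). RAN itself had 16823 ± 3731 and 10487 ± 1248 reads, a log2 fold change of -0.68 (SE 0.18, adjusted p = 0.0812), and its adjusted p was 0.0050 under DESeq2. CSE1L, the exportin that returns importin alpha to the cytoplasm, had -0.52 (SE 0.20, adjusted p = 0.204). RANBP17 had the highest value of these lists, 1.20 (SE 0.69), at 53.2 to 332 reads per library, and RANBP3 had 0.15 (SE 0.33). The 11 further pore components had a median of -0.32 and no call.

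Genes of the G2 and M phases of the cell cycle were read from a list of 20. All 20 had a log2 fold change below 0, against 49.9% of all tested genes, and 3 were called lower, namely BIRC5, AURKA and CENPF, against 1.21%. Their summed reads were 77851 ± 10582 in siControl, from 70784 to 90017, and 52677 ± 3397 in siCGGBP1, from 49089 to 55844. The median log2 fold change of this list was -0.52, against -0.22 for receptors and -0.34 for nucleoporins. The paper itself reports that knockdown of CGGBP1 for 72 h raised the share of cells in G1, by flow cytometry, and lowered that in S phase. The part of cell cycle stage in the values of KPNB1 and the other members was not tested. Of the mesenchymal markers, COL1A1 and SPARC rose, by 1.31 (SE 0.18, adjusted p = 0.00353) and 1.27 (SE 0.19, adjusted p = 0.00634) on the log2 scale by edgeR. VIM, at 0.16 (SE 0.14), and RUNX2, at 0.52 (SE 0.54), were not called, and ALPL had too few reads to be tested. The part of these markers was not tested.

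CGGBP1 is known for binding CGG repeats at promoters, so the members' promoters were searched for CGGCGG on either strand (CCGCCG on the other) in the 300 bases from 250 before to 50 after the RefSeq start (GRCh38.p14). An entry was found for 37 of the 42 tested members, not including KPNB1, KPNA4, KPNA5, NUP43 and XPO7. The motif was present in 24 of the 37 (64.9%), in 11 of 18 receptors and 13 of 19 nucleoporins. It was present in 59.6% of the 7930 tested genes with an entry and in 29.6% of the 35116 promoters of the table. Of the 24 members with the motif, 18 had a log2 fold change below 0 (median -0.34), and of the 13 without it 10 did (median -0.22). Uninterrupted runs of 3 repeats were found in TNPO1 and NUP160 alone, 5.41% of the members with an entry against 14.7% of the tested genes. Their log2 fold changes were -0.0047 and -0.35.

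The bases before the start of 3 members with the motif are printed as examples of where it sits. All 3 lay lower in siCGGBP1 without overlap, as did TNPO2, XPO1 and NUP88, which also have the motif. IPO9, KPNA2 and XPO5 lay lower without overlap too but have no motif, and a link of motif and direction was not tested. They run 5′ to 3′ on the strand of the gene, and capitals mark CGGCGG or CCGCCG. The KPNA3 window is chr13:49792683-49792932 on the minus strand, the XPO6 window chr16:28211966-28212215 on the minus strand, and the NUP50 window chr22:45163675-45163924 on the plus strand.
KPNA3: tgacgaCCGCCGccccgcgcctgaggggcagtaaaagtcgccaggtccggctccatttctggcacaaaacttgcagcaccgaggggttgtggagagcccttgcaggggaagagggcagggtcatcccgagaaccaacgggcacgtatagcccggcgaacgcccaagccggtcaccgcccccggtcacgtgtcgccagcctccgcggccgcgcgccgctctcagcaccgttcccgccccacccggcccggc
XPO6: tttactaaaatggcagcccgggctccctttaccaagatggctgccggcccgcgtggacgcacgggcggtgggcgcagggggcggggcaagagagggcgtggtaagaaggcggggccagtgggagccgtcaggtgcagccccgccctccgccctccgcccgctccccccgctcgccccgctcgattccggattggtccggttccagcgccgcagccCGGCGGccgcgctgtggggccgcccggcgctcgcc
NUP50: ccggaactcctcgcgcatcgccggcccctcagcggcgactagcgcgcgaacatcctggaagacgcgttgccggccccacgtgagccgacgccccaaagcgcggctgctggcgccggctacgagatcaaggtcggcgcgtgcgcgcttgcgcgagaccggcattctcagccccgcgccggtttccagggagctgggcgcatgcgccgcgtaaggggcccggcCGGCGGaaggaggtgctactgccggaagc
Each printed window ends just before the gene start in GENCODE, which need not be the RefSeq start used in the search. In XPO6 and NUP50 the motif begins 35 and 29 bases before the GENCODE start, whereas in KPNA3 it begins 244 bases before it. A match is a description of the sequence and not a binding site.

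New RNA, the reads of a gene times its new-to-total ratio from GRAND-SLAM, was measured with far less precision. The fitted coefficient of variation between replicates was 1.78 for new RNA and 0.399 for total RNA. The ratio was 0 in at least 1 library for 27 of the 42 members, and above 0 in all 6 libraries for 15. Per library, 7.14 to 47.6% of the members had a ratio of 0 in siControl and 19.0 to 42.9% in siCGGBP1, against 22.5 to 57.4% and 29.6 to 59.8% of all tested genes. The highest of these shares lay in replicate 3 in both groups. None of the 42 members was called in new RNA by edgeR, where 0.0493% of all tested genes were. At an unadjusted p under 0.05 there were 3 members, KPNA2, KPNB1 and XPO6, and 3.15% of all tested genes.

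Pooled over genes, new RNA made up 7.30 ± 1.25% of the reads of receptors without KPNB1 in siControl and 6.14 ± 0.347% in siCGGBP1 (SD, n = 3). For nucleoporins it made up 5.13 ± 0.065% and 5.43 ± 1.89%. All tested genes had 4.83 ± 0.420% and 4.87 ± 0.926%. The libraries of the groups overlapped in each of these. The median log2 fold change in new RNA was -0.75 over receptors and 0.64 over nucleoporins, with -0.03 over all tested genes. Without siCGGBP1 replicate 3 the nucleoporin median turned to -0.15 and the receptor median was -0.30, and none of these medians was tested.

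For KPNB1 the siControl libraries held 792, 1869 and 1584 normalized new reads, and the siCGGBP1 libraries 916, 452 and 846. One siControl library lay among the siCGGBP1 libraries, and the log2 fold change of -0.94 (SE 0.35, unadjusted p = 0.00729) did not pass the adjustment over all genes (adjusted p = 0.994, edgeR). The unadjusted p depended on the method. It was 0.383 by the DESeq2 Wald test and 0.00134 to 0.135 by edgeR with 1 library left out. Counted as conversions the log2 fold change was -1.08, and counted as reads with at least 2 conversions it was -1.17, with adjusted p of 0.297 and 0.896. The new-to-total ratio of KPNB1 was 4.96, 12.5 and 10.8% in siControl and 14.7, 9.08 and 11.3% in siCGGBP1. Its means, 9.43 ± 3.96% and 11.7 ± 2.83% (SD, n = 3), overlapped (p = 0.5, exact permutation test, two-sided, which cannot go below 0.1 with 3 against 3). With 3 libraries per group this test could not reach 0.05 at any spread, so it says nothing on whether the ratio differed.

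**Figure D4:**
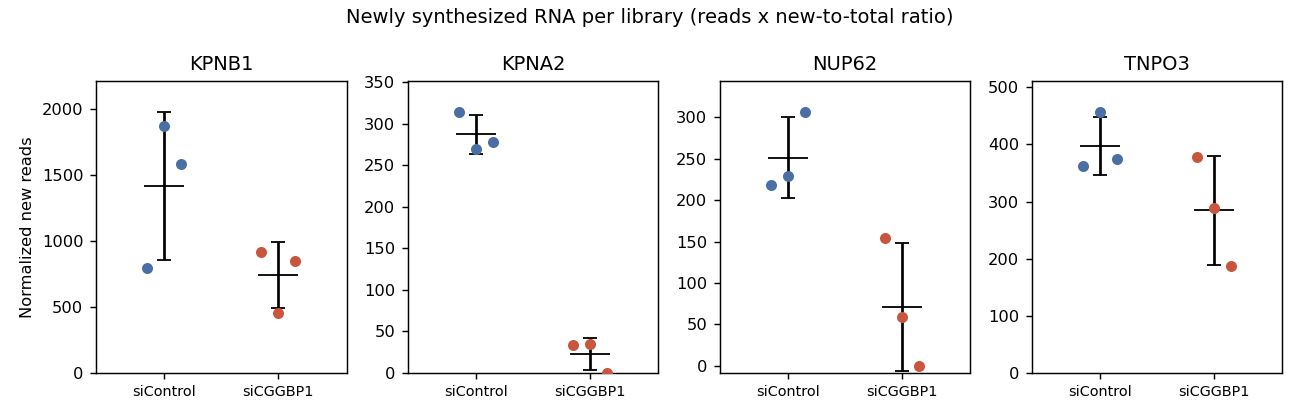
Normalized new reads per library (y axis) of 4 members, with the mean and SD of 3 libraries. KPNA2 lies lower in siCGGBP1 in all 3 libraries and NUP62 too, while KPNB1 and TNPO3 overlap between groups.

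The conversions of KPNB1 were high without any 4sU. In the siControl library with 0 µM 4sU, KPNB1 had 2212 conversions in 22848 reads, or 0.345 per 100 covered T. At 75 µM it had 0.269, 0.455 and 0.397 per 100 covered T in siControl and 0.643, 0.364 and 0.360 in siCGGBP1, and at 200 µM 0.285. The library without 4sU thus lay inside the range of the labelled ones. The other tested members pooled had 0.0683 at 0 µM, 0.246 to 0.305 at 75 µM and 0.233 at 200 µM. Pooled in this way, labelled and unlabelled libraries were separate, but single members did not all show this. At 75 µM, 1 of 6 libraries lay at or below the rate without 4sU for KPNB1 and KPNA6, and 2 for XPO1 and NUP58. None did for KPNA2 and TNPO1. Over all tested genes, 526 (5.19%) had a rate without 4sU at or above that of KPNB1, and the median was 0.0130. Among members only TNPO3, which imports splicing factors rich in serine and arginine, had a higher rate without 4sU than KPNB1, 0.796 per 100 covered T, against 0.595 to 1.36 at 75 µM. In 5 members, NUP214, IPO5, NUP37, NUP88 and XPO7, and in 14.6% of all tested genes, the median rate at 75 µM did not exceed the rate without 4sU. The widest gap was in IPO5, at 0.276 without 4sU and 0.0399 to 0.215 at 75 µM. These 5 members are included in the medians and pooled shares of new RNA above.

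Reads of KPNB1 with at least 2 conversions were few without 4sU. There were 6 of them, 136, 267 and 268 in siControl at 75 µM, and 215, 52 and 4 in siCGGBP1. Per 1000 reads of KPNB1 these are 0.263, then 9.81, 17.1 and 18.4, then 39.7, 10.4 and 0.441. The siCGGBP1 libraries ranged from the lowest to the highest of the labelled values, and in replicate 3 the value was close to the one without 4sU although the ratio there was 11.3%. The new-RNA values of KPNB1, TNPO3 and these 5 members are given with this limit. It also holds for members with single labelled libraries at or below the rate without 4sU. The origin of the conversions without 4sU was not tested.

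KPNA2 was the member with the lowest p in new RNA. Its siControl libraries held 314, 270 and 278 normalized new reads, and its siCGGBP1 libraries 33.7, 34.2 and 0. Every siControl library lay far above every siCGGBP1 library, and its conversion rate without 4sU, 0.0386 per 100 covered T, was below all labelled ones. The log2 fold change was -3.66 (SE 1.22, unadjusted p = 0.00269), which did not pass the adjustment (adjusted p = 0.994, edgeR, 0.174 to 1.00 over the alternatives). In conversions, KPNA2 had 576, 591 and 549 in siControl and 127, 151 and 134 in siCGGBP1, a log2 fold change of -2.14. Its new-to-total ratio was 5.33 ± 0.210% in siControl and 0.540 ± 0.471% in siCGGBP1 (SD, n = 3). In total RNA the log2 fold change of KPNA2 was -0.43, so its values lay further apart in new than in total RNA, a difference that was not tested.

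Lower in siCGGBP1 without overlap in new RNA were KPNA2, IPO11, NUP107 and NUP62, 4 of 42 members, against 4.47% of all tested genes, and none was higher without overlap, against 2.89%. For NUP62 the siControl libraries held 218, 229 and 307 normalized new reads and the siCGGBP1 libraries 154, 59.4 and 0, a log2 fold change of -1.82 (SE 1.10, adjusted p = 0.994, edgeR). Its new-to-total ratio was 0 also in the siControl library with 200 µM 4sU. XPO6 had 23.6, 0 and 165 normalized new reads in the siControl libraries but 0 in each siCGGBP1 library. Most of its siControl value thus came from replicate 3, replicate 2 had 0 as well, and the groups overlapped. Its conversions were 42, 6 and 180 in siControl and 2, 22 and 2 in siCGGBP1. NUP188 was at 0 in each siControl library, whereas the siCGGBP1 libraries held 10.1, 18.9 and 0, so its groups overlapped too. The use of molecular identifiers is not given in the sources used here, so 1 molecule may have given several reads.

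Among members with a log2 fold change above 0 in new RNA, KPNA6 and NUP43 had the lowest p besides NUP188. KPNA6 went from 169, 398 and 0 normalized new reads (siControl) to 272, 168 and 494 (siCGGBP1), and NUP43 had 18.7, 0 and 0 and then 51.8, 0 and 85.8. Both overlapped between groups. KPNA6 had 0.208 conversions per 100 covered T without 4sU, above the 0.0714 of siControl replicate 3, its library with 0 new reads. Among members the ratio in siControl was highest for TNPO3 (40.8 ± 10.8%), KPNA5 (40.8 ± 46.6%) and KPNA4 (21.7 ± 12.7%), the first of these with the high conversions without 4sU given above. It was lowest for NUP188 (0%), IPO4 (0.17%) and NUP93 (0.31%). KPNA4, the one member higher without overlap in total RNA, had siControl libraries of 129, 191 and 250 normalized new reads against 95.6, 279 and 272 in siCGGBP1, which overlapped (log2 fold change 0.18, SE 0.93).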

How the data were processed

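SLAM-Seq libraries of U-2OS Tet-ON cells were compared between siControl and siCGGBP1 at 75 µM 4sU (60 min), with 3 libraries per group as named in the labels. The study counts them as biological replicates, while the labels do not say whether they were separate cultures. The authors removed ribosomal reads with Bowtie2 2.3.0, mapped to GRCh38 with STAR 2.5.3a and ran GRAND-SLAM; removal of PCR duplicates is not given in the sources used here. The deposited values used were expected counts of reads, conversions, covered T and reads with at least 2 conversions per gene (the last read so from its name and its low level without 4sU), not normalized, with a read that matched several genes counted in fractions, and the new-to-total ratio as a fraction, estimated by the authors.

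Reads were rounded and scaled by TMM. The filter kept 10138 of 18388 genes, those that reached 100 reads in 3 or more of the 6 libraries. Total RNA, and new RNA (reads multiplied by the maximum a posteriori ratio, rounded, with the scaling of total reads), were each fitted in R 4.3.3 by the quasi-likelihood F test of edgeR 4.0.16, and p was adjusted by Benjamini-Hochberg over every gene kept. Calls were made below an adjusted p of 0.05. The study used DESeq2, which was run here as an alternative (1.42.0). The SE was taken as the size of the log2 fold change over the root of the F statistic. Coordinates are from GENCODE on GRCh38. The ratio of KPNB1 was compared by an exact permutation test (scipy 1.17.1). The total RNA fit was also run on simulated counts.

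Alternatives were DESeq2 size factors, 2 other filters on low counts, a 2-fold threshold, a replicate block, each library left out, and for new RNA other measures and scalings, of which reads with at least 2 conversions were chosen after seeing the data. The members, gene lists and tests were chosen with earlier results of these data known. Members were named by rule: called genes, the 6 lowest p in each direction in total RNA and the 3 in new RNA, the 3 with the most reads per family, the 3 highest and 3 lowest ratios, and others where a family was described whole. Libraries of one group differed by more than counting noise (chi-square per degree of freedom of 32.1 to 93.6), so none was treated as a library deposited again. This does not tell separate cultures from separate preparations of one culture.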

Additional observations from a re-analysis of the deposited data

Results flagged for a closer look

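The siControl library with 200 µM 4sU entered no comparison and was set against the library without 4sU, with 1 library each and no replicate. The members other than KPNB1 had 0.233 T-to-C conversions per 100 covered T at 200 µM and 0.0683 without 4sU, and 17.6 against 0.0681 reads with at least 2 conversions per 1000 reads. KPNB1 had 2.77 reads with at least 2 conversions per 1000 reads at 200 µM and 0.263 without 4sU. These 3 values were picked out because a signal appeared in a library that the comparisons do not use, above the level in the library without 4sU. The conversions of KPNB1 per 100 covered T were not above that level, at 0.285 against 0.345.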

How the results depend on the processing

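KPNB1 in total RNA kept its call and direction under all 12 alternatives run. The number of genes called in total RNA was 181 by edgeR, 619 by DESeq2, 477 with no filter on low counts and 48 to 163 with 1 library left out. The members called lower were 2 and those called higher 1 under DESeq2 and with no filter on low counts, and 1 and 0 otherwise. Without 1 library the receptor median ranged from -0.35 to -0.20 and the nucleoporin median from -0.44 to -0.12. In new RNA, 5 genes were called by edgeR, 27 by DESeq2, 19 from conversion counts, 3 from reads with at least 2 conversions, 2 with the replicate block and 3 to 6 with 1 library left out. The cause of these differences was not tested.

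Signs turned with 1 library left out for IPO8 (-0.042 to 0.46), TNPO1 (-0.13 to 0.12), NUP85 (-0.019 to 0.10), KPNA5 (-0.42 to 0.46), TNPO3 (-0.17 to 0.34), RANBP3 (-0.068 to 0.25) and CGGBP1 in new RNA (-2.11 to 0.18), none of them called. CGGBP1 in new RNA was 0.59 from reads with at least 2 conversions. TNPO1 was 0.0029 with the replicate block. RCC1 was no longer called with the filter of edgeR (adjusted p = 0.0577) or the replicate block (0.0878), and RAN was called with the replicate block (0.0400).

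Same-numbered libraries correlated at 0.105, 0.172 and 0.0835 in their deviations from the group means, and differently numbered ones at -0.0989 to -0.0193. Each library thus correlated best with its own number, although weakly. The main fit did not take the numbers as pairs, and the replicate block was run as an alternative. With the replicate block, 253 genes were called in total RNA and the log2 value of KPNB1 was -1.31, at an adjusted p of 0.00799. The share of members with a ratio of 0 was highest in replicate 3 of both groups, 47.6% in siControl and 42.9% in siCGGBP1. In the other libraries it was 7.14 to 19.0%. Over all tested genes it was 57.4% and 59.8% in replicate 3 and 22.5 to 31.9% in the others. Replicate 3 had 12008067 reads in siControl and 14221516 in siCGGBP1, and siControl replicate 1, at 7.14%, had 10166234. The parts of replicate number and of depth in these shares were not tested.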
